A study of Mus musculus with 15 samples.

Results

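The zinc finger gene cluster of mouse chromosome 13 was examined in chromatin accessibility data of haematopoietic stem cells (HSC). Its genes were chosen by position and name, as protein-coding genes of the RefSeq table (GRCm38.p6, the assembly behind mm10) in a 6.5 Mb stretch from position 62 Mb whose symbol or listed synonym begins with Zfp, Znf, Rsl or Rslcan. There were 32 such genes among 21887 protein-coding genes, 31 of them by symbol and Gm10037 by its synonym Rslcan24. Of the 32, 26 lay beyond 67 Mb, in a dense block that ended at position 67844879. The cluster was picked for study because accessibility of Zfp429 and Zfp58 was already known to differ between these libraries, so the values of those genes are given as a description.

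Accessibility was measured by ATAC-seq, in which a transposase cuts open DNA, with 1 library per genotype. The KO library came from Mx1-Cre+/-;mTORflox/flox mice, in which the interferon-inducible Mx1 promoter drives Cre and both mTOR alleles are floxed. The KI library came from Mx1-Cre+/-;mTORflox/knockin mice, with 1 floxed mTOR allele and 1 knockin allele. The WT control library came from Mx1-Cre-/-;mTORflox/flox mice, which have the floxed alleles and no Cre. All mice were adult and had received poly(I:C), an RNA analogue that induces interferon and hence Mx1-Cre. An effect of Cre and an effect of the mTOR alleles cannot be told apart in comparisons with WT. Per the labels, KO and WT were re-analysed and KI was not, so the KI genotype and a difference in batch cannot be told apart.

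Most genes of such clusters encode KRAB zinc finger proteins. These bind DNA through tandem C2H2 fingers, and their KRAB domain recruits the corepressor TRIM28, which brings in the histone methyltransferase SETDB1 and silences chromatin, often at transposable elements. The clusters grew by tandem duplication and differ between inbred mouse strains in sequence and gene content. The chromosome 13 cluster is known for the regulators of sex limitation, Rsl1 and Rsl2 (a synonym of Zfp429), which repress male-specific genes in mouse liver and were found through strains that lack this repression. The reference assembly is of the strain C57BL/6J and the strain of the mice is not given in the sources used here, so the part of strain variation in any difference below was not tested.

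RefSeq promoter windows (GRCm38.p6), each from 250 bp before to 50 bp after an annotated start, were available for 27 of the 32 genes, with 30 starts in all. The 5 printed next were chosen from genes whose start differed between libraries or closely resembles one that did. Zfp429 had a peak in WT alone, and Rsl1 and Zfp456 are its closest relatives. Zfp58 had peaks in KO and KI, and the start of Zfp65 had peaks in KO and WT. Zfp459, which lacks the word marked below, and Gm10037 also had starts that differed and are not printed. Capitals mark a 13-letter match to the core of the motif bound by the transcription factor ZNF143, in which the letters at positions 6 and 7 of the match were free. They lie at chr13:67399718-67400017 (Zfp429, minus strand), chr13:67172932-67173231 (Rsl1, plus strand), chr13:67375714-67376013 (Zfp456, minus strand), chr13:67500473-67500772 (Zfp58, minus strand) and chr13:67729124-67729423 (Zfp65, minus strand).
Zfp429: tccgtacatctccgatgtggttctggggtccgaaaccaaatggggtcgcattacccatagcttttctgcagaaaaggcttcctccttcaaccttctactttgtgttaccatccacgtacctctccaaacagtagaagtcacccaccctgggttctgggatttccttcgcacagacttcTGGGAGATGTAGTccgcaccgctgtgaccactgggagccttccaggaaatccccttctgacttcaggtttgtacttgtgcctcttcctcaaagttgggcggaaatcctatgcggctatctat
Rsl1: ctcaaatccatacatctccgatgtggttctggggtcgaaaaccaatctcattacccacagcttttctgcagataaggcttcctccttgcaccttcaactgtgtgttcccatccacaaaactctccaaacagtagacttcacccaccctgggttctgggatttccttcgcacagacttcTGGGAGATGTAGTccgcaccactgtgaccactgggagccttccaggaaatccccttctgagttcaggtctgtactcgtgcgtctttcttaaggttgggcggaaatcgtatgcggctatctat
Zfp456: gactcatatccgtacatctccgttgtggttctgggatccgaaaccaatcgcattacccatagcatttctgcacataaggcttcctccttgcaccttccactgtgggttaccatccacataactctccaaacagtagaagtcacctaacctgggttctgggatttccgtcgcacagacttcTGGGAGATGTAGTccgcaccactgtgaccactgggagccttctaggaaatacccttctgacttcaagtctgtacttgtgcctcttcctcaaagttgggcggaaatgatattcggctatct
Zfp58: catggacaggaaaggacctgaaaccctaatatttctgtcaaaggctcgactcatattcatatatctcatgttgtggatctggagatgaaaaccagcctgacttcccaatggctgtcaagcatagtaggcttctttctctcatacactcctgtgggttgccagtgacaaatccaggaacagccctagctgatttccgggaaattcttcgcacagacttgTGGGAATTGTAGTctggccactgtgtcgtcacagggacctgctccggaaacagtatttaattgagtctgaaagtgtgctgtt
Zfp65: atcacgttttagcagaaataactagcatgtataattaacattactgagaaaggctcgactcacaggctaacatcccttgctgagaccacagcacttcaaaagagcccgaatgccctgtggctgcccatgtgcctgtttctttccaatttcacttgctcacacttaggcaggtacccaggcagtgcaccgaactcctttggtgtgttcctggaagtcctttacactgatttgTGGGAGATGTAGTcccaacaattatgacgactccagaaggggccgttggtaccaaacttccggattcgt

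The Zfp429, Rsl1 and Zfp456 promoters resembled each other most among the 432 pairs compared. In global alignments Rsl1 and Zfp456 were identical at 88.4% of aligned positions, Rsl1 and Zfp429 at 87.9% and Zfp456 and Zfp429 at 87.3%, against a median of 46.2% over all pairs. Zfp58 was closest to Zfp748, at 62% identity. Of the 36-base words in the Zfp429 promoter, 31 of 265 (11.7%) also occurred in another gene's promoter, 30 of them in that of Rsl1. The Rsl1 promoter shared 50 of 265 words (18.9%), and the Zfp58 and Zfp65 promoters shared 0 of 265 each. Words of 50 bases were shared by 12 of 251 positions (4.78%) in Zfp429 and 18 of 251 (7.17%) in Rsl1. Short reads from shared words cannot be placed uniquely, but the read length is not given in the sources used here, and placement was not tested. Zfp640, a member in the stretch before the dense block, shared 146 of its 265 words (55.1%), most with the predicted gene Gm17353.

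The ZNF143 core word was noticed in these promoters and then counted, so its frequency is a description. The search covered both strands. It was present in 21 of the 30 windows of the cluster (70%, 95% Wilson interval 52.1 to 83.3), in 0 of 39 windows of the other protein-coding genes of the region (interval up to 8.97), in 38 of 377 windows of Zfp genes elsewhere (10.1%) and in 440 of 21263 windows of all protein-coding genes (2.07%). In all 21 it had the same orientation relative to the gene as in the sequences above, with its first base at positions -179 to -17 from the start and a median of -57. These were 21 of the 23 genes beyond 67 Mb that had a window, the other two being Rslcan18 and Zfp459, and Zfp808, Zfp935, Zfp367 and Zfp640, which lie before 67 Mb, also lacked it. The 7-letter ETS core CTTCCGG was found in 7 of 30 windows of the cluster (23.3%), and in 9 of 39 (23.1%) of the other protein-coding genes of the region. The share was 21% for Zfp genes elsewhere and 11.6% for all protein-coding genes. Duplicated promoters share letters by descent, so these windows are not independent of each other.

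The libraries themselves need a few facts. The KO list held 19189 peaks, the KI list 28391 and the WT list 17316, at unknown read depth, and there were no replicates, so that every difference is between libraries and no test or p-value applies. The fifth column of each list, a score of the form written by the peak caller MACS, is the authors' own value, with a lowest value near 50. It is used here as a percentile within its own list. Percentiles from lists of different length show no change in level. Mtor, the targeted gene, had no gene-end peak in KO, though KO had a peak in the gene body. Its gene-end peak had a score of 210.27 in KI (percentile 82.1) and 341.21 in WT (percentile 96.7). Of 14 HSC marker genes, 5 had a gene-end peak in KO, 8 in KI and 9 in WT. Ly6a, Slamf1 and Hoxa9 had no peak at all in any list. Of 5 erythroid markers 1 had such a peak in KO, 2 in KI and 0 in WT, and of 4 myeloid markers 0, 2 and 0. The counts in KO, KI and WT were 0, 2 and 1 of 4 for B cell markers, 2, 2 and 1 of 3 for T cell markers and 1, 2 and 0 of 4 for genes of non-blood tissues. Over all protein-coding genes 44.1% had a gene-end peak in KO, 51.4% in KI and 44.2% in WT. The part of cell makeup in the results below was not tested.

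**Figure D1:**
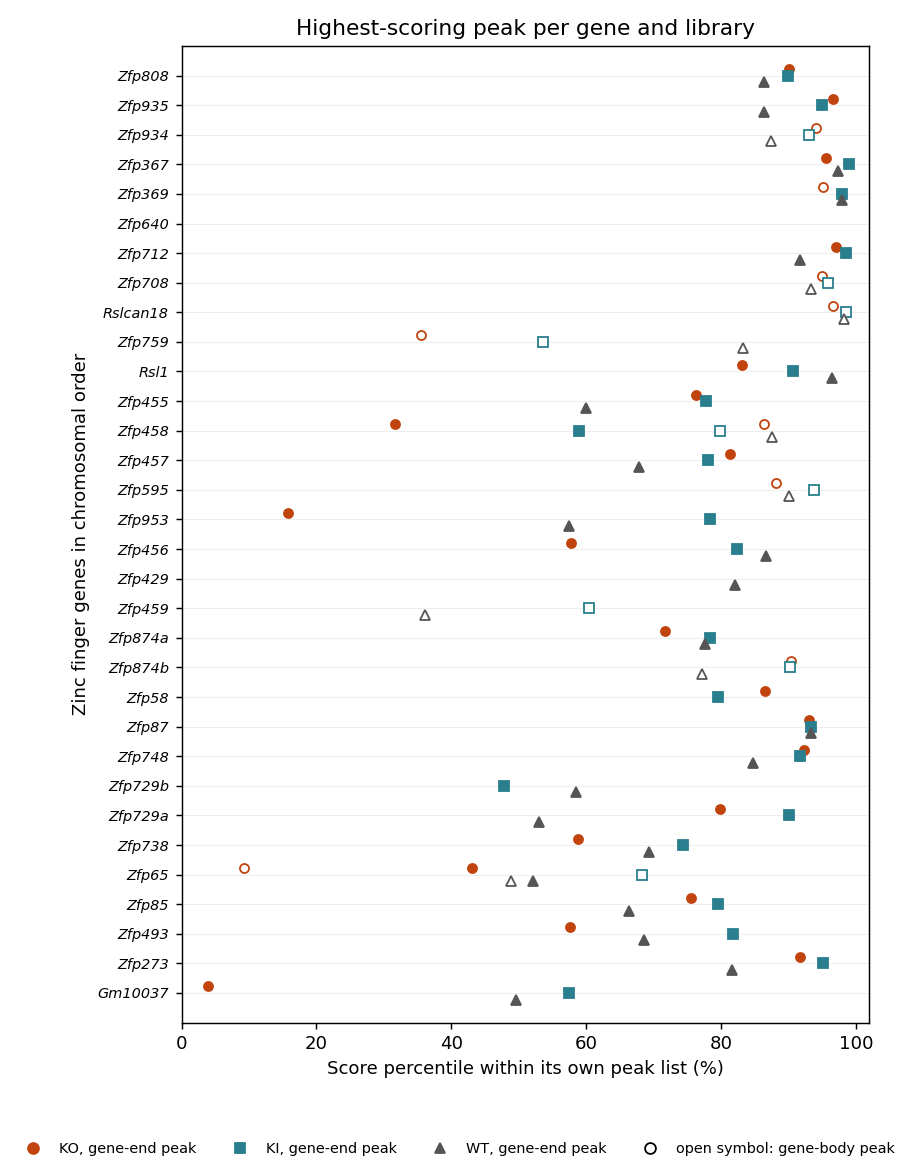
Score percentile, within its own list, of the highest-scoring peak of each of the 32 zinc finger genes in the KO, KI and WT libraries, with genes in chromosomal order from top to bottom. Filled symbols are peaks within 1 kb of a gene end and open symbols peaks in the gene body farther from the ends. Zfp429 has a WT symbol alone, Zfp58 has KO and KI symbols alone, and Zfp640 has none.

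The cluster was widely accessible in these stem cells. A gene-end peak, meaning a peak within 1 kb of either annotated end, was present for 21 of the 32 genes in KO (65.6%, interval 48.3 to 79.6), 22 in KI (68.8%, 51.4 to 82) and 22 in WT (68.8%). Over all protein-coding genes the shares were 44.1% in KO, 51.4% in KI and 44.2% in WT. Zfp genes outside the region stood at 66.6% in KO, 77.1% in KI and 65% in WT, and the 45 other protein-coding genes of the same region at 33.3%, 37.8% and 33.3%. Membership went by symbol and synonym, so the 45 may include predicted zinc finger genes that carry neither name. The median percentile of the best gene-end peak was 79.9 in KO, 82.1 in KI and 79.6 in WT for the cluster, beside 72, 78.2 and 69.5 over all genes with such a peak. The other genes of the region that had one stood higher than the cluster, at 89.5 in KO, 93.1 in KI and 85.2 in WT. Counting peaks in the gene body as well, 28 genes had a peak in KO, 30 in KI and 30 in WT, and 27 (84.4%) had one in all 3 lists. By this count the share was 87.5% in KO, 93.8% in KI and 93.8% in WT, beside 53.4%, 61.8% and 52.6% over all protein-coding genes and 75.7%, 87.9% and 74.9% for Zfp genes elsewhere. Intervals cover counting error over genes and nothing else.

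**Figure D2:**
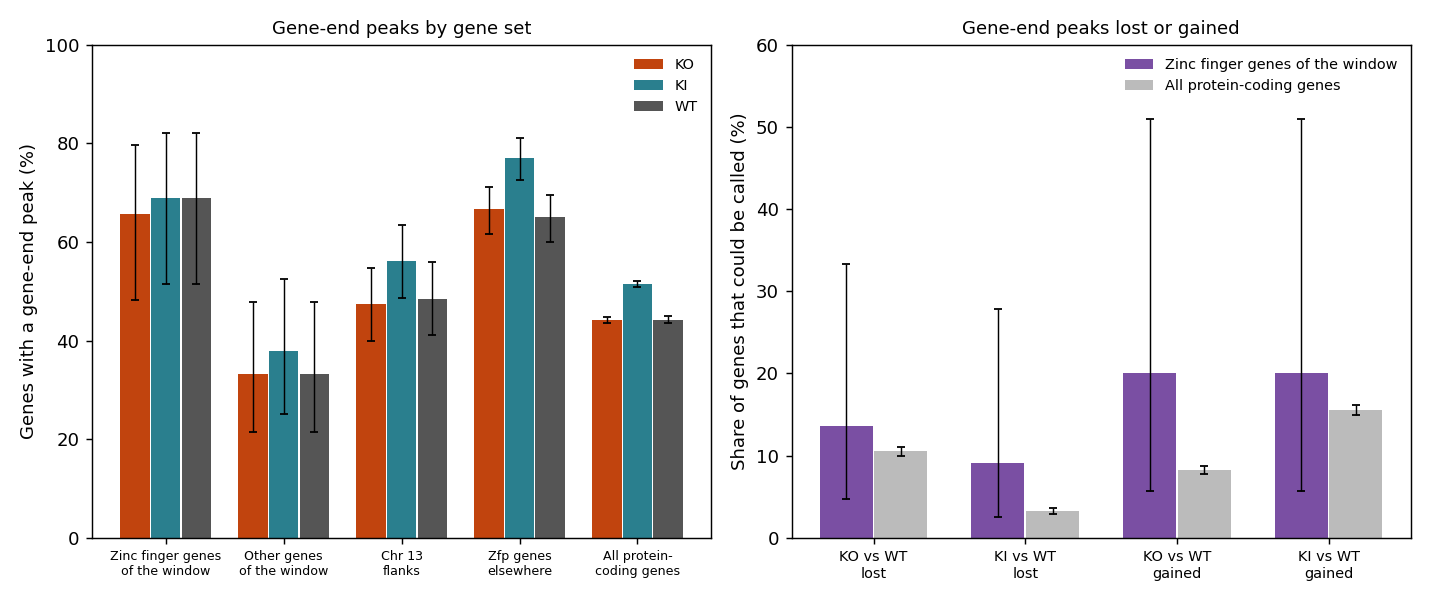
Left, share of genes with a gene-end peak in the KO, KI and WT lists for the zinc finger genes of the region, the other genes of the region, chromosome 13 genes within 10 Mb of it, Zfp genes elsewhere and all protein-coding genes. Right, share of genes whose gene-end peak was lost or gained against WT; bars are percentages, error bars 95% Wilson intervals, and the wide intervals of the zinc finger genes come from counts of 2 or 3 genes.

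Against WT, the KO library lacked a gene-end peak at 3 of the 22 genes that had one in WT (13.6%, interval 4.75 to 33.3), namely Zfp429, Zfp729b and Zfp369. Over all protein-coding genes with a WT gene-end peak, 10.5% were lost in this sense. KO had a gene-end peak at 2 of the 10 genes without one in WT, Zfp458 and Zfp58, beside 8.21% of all genes. In KI, Zfp429 and Zfp65 were lost (2 of 22, 9.09%, interval 2.53 to 27.8), beside 3.29% of all genes, and Zfp458 and Zfp58 were gained, beside 15.5%. Zfp429 was the member lost in both mutants, where 2.43% of all genes were, and Zfp458 and Zfp58 were gained in both, where 6.32% were. The KO and KI comparisons share the WT library. With so few genes each interval of the cluster contains the share over all genes. Zfp429 and Zfp58, for whose known difference the cluster was chosen, are among these counts. The shares of the cluster are therefore a description and no fair comparison with all genes.

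Zfp429, which the reference lists as Rsl2, is a gene of 10994 bp on chromosome 13 from 67388924 to 67399917, read from the minus strand. No KO peak and no KI peak lay in the gene or near it, and WT had a peak over its annotated start, from 67399332 to 67400035, with a score of 187.29 at percentile 82.1. The nearest KO peak was 23399 bp away and the nearest KI peak 21171 bp away. Of the 4100 genes whose WT gene-end peak was in the top 25% of the list, 10 (0.244%) were lost in KO with no overlapping KO peak, and 1 (0.0244%), Zfp429 itself, was lost in KI in this way. That gene was thus also the 1 of 4100 lost from both (0.0244%). Zfp429 was already known to differ when the cluster was chosen, so its place in these counts follows from that choice.

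Its relatives with the most similar promoters had peaks in every library. Rsl1, the first regulator of sex limitation, spans 10318 bp and had a peak over its start with a score of 170.11 in KO (percentile 83.1), 291.92 in KI (90.6) and 334.46 in WT (96.5). Zfp456 had a start peak with a score of 98.64 in KO (percentile 57.7), 213 in KI (82.4) and 214.8 in WT (86.6). In WT these 3 related starts were thus all in the top 25% of the list. Rsl1 and Zfp456 were also in the top 25% in KI, and Rsl1 alone of the 3 was in KO. Zfp456 stood below Rsl1 in every list. The KO peak at Rsl1 was 473 bp wide, against 684 bp in KI and 774 bp in WT, and at Zfp456 the widths were 405, 474 and 775 bp.

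Zfp58, a zinc finger gene with Rslcan5 among its synonyms, lies farther along, from 67490167 to 67500522 on the minus strand. Its start was covered by a KO peak with a score of 189.33 (percentile 86.5, rank 2591 of 19189) and by a KI peak with a score of 192.67 (percentile 79.5). WT had no peak in or near the gene, and the nearest WT peak lay 15198 bp from the KO peak. The KO and KI peaks had nearly the same position and width, 67500077 to 67500708 (632 bp) in KO and 67500102 to 67500731 (630 bp) in KI. Gene-end peaks in the top 25% of KO without an overlapping WT peak occurred at 19 of 4393 genes (0.433%), and the same was found for 60 of 6279 genes in KI (0.956%). Zfp58 was the 1 member of the cluster in each of these counts, and its difference was likewise known when the cluster was chosen. Zfp429 and Zfp58 thus showed opposite patterns within the same dense block, with Zfp459, Zfp874a and Zfp874b between them.

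**Figure D3:**
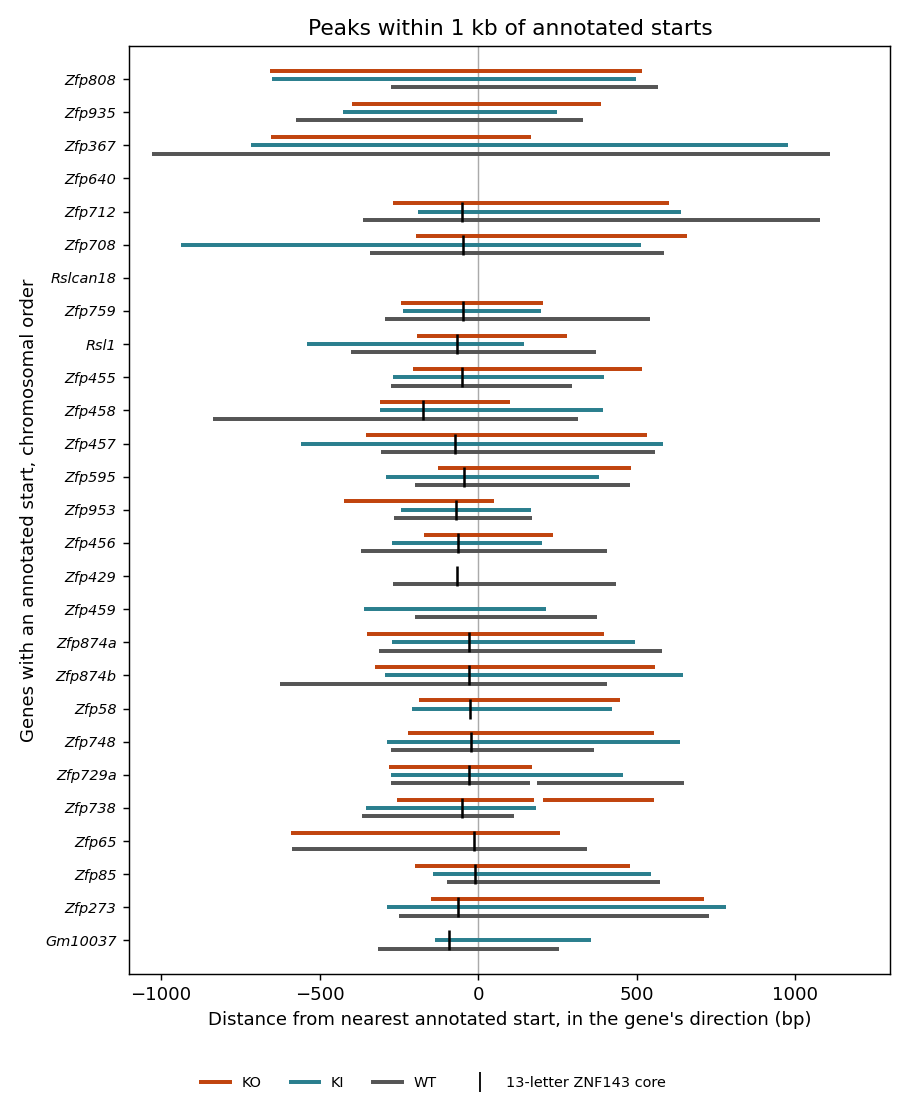
Peaks whose centre lay within 1 kb of an annotated start, drawn as lines from peak start to peak end against distance from the nearest annotated start of the gene, for the 27 zinc finger genes with a start in the promoter table. Black ticks mark the ZNF143 core word, and Zfp367 is drawn against the nearer of its 2 starts; most genes have KO, KI and WT lines over the start, Zfp429 has WT alone and Zfp58 has KO and KI.

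Zfp458 had a KO peak (score 68.68, percentile 31.7) and a KI peak (111.68, percentile 59) at the high-coordinate boundary of the annotated gene, 67278498. On the minus strand this is its upstream boundary. The nearest WT peak was 8519 bp from the KI peak. That KO peak was centred at -9608 bp from the annotated start, which had a peak of its own in each list, at percentile 86.4 in KO, 79.9 in KI and 87.5 in WT. The gain at Zfp458 therefore did not concern the start in the promoter table, and whether it marks another start was not tested. Zfp729b, a tandem neighbour of Zfp729a, had no KO peak within 27612 bp of its WT peak, and had a score of 89.82 in KI (percentile 47.8) and 110.68 in WT (percentile 58.5). Zfp729a itself had a peak in all 3 lists, at percentile 79.9 in KO, 90 in KI and 53 for the higher of a pair of WT peaks.

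Zfp65 had a peak over its start with a score of 78.99 in KO (percentile 43) and 98.13 in WT (percentile 52.1), and KI had none there. A second peak inside Zfp65, about 5 kb into the gene, was present in every list, at percentile 9.19 in KO, 68.3 in KI and 48.8 in WT. Against each other, KI lacked 1 of the 21 gene-end peaks of KO, that of Zfp65, beside 3.25% over all genes, and had 2 of the 11 that KO lacked, Zfp369 and Zfp729b, beside 15.6%. The Zfp369 call rested on the 1 kb limit. Its KO peak (score 272.15, percentile 95.1) began 61 bp beyond the limit, the KI peak (474.92, percentile 97.9) 20 bp inside it and the WT peak (382.58, percentile 98) 129 bp inside it, and the 3 peaks overlapped. Zfp369 was thus strongly accessible in every library.

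A pair of starts differed without changing the gene-end call. Zfp459, next to Zfp429, had no KO peak at its start, against a score of 115.05 in KI (percentile 60.4) and 76.44 in WT (percentile 36.1). The nearest KO peak was 29453 bp from the KI peak. Gm10037, the last member of the block, had no KO peak at its start on the low-coordinate side, against 55.84 in KI (percentile 10.3) and 93.87 in WT (percentile 49.6), while its far end had a peak in every list. Taking annotated starts alone, 22 of 27 genes had a peak within 1 kb of a start in KO, 23 in KI and 24 in WT, and 20 did so in all 3 lists. The share by this rule over all protein-coding genes was not computed, so these counts cannot be read as particular to the cluster.

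Gene-end peaks in all 3 lists were found at 18 of the 32 genes (56.2%, interval 39.3 to 71.8). The share was 60.6% for Zfp genes elsewhere and 39.2% over all protein-coding genes. The 6 with the highest WT percentiles were Zfp367, Rsl1, Zfp87, Zfp712, Zfp456 and Zfp935. Zfp367, a zinc finger gene first described in erythroid cells and lying outside the dense block, stood at percentile 95.5 in KO, 98.9 in KI and 97.3 in WT. Zfp87, a KRAB gene, stood at 93, 93.4 and 93.3, and Zfp712 at 97, 98.5 and 91.7. Zfp935 stood at 96.6 in KO, 95 in KI and 86.4 in WT. By its best gene-end peak, Gm10037 stood lowest of the 18 in every list, at 3.89 in KO, 57.5 in KI and 49.6 in WT. The KO and KI values belong to the peak at its far end and the WT value to the peak at its start. At the far end the WT peak stood at 28.9. The percentiles of the other 11 ran from 15.8 to 92.3 in KO, from 74.3 to 95.1 in KI and from 53 to 86.3 in WT. The lowest KO value among these 11 belonged to Zfp953, at 15.8, against 78.4 in KI and 57.4 in WT. At Zfp455 the order differed, with 76.3 in KO, 77.7 in KI and 59.9 in WT.

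Several genes had their accessible site inside the annotated gene, more than 1 kb from either end. Zfp934 had a gene-body peak at percentile 94 in KO, 93.1 in KI and 87.4 in WT. Zfp708 (94.9, 95.8 and 93.4), Zfp595 (88.2, 93.8 and 90.1) and Zfp874b (90.3, 90.2 and 77.2 in KO, KI and WT) had theirs over an annotated start. Rslcan18 had a strong peak about 5 kb inside the gene, at percentile 96.6 in KO, 98.5 in KI and 98.2 in WT, and none at its annotated start. Zfp759, listed also as Rslcan8, had a start peak at percentile 35.5 in KO, 53.6 in KI and 83.3 in WT, with widths of 448, 434 and 834 bp. Zfp640 was the 1 member with no peak in any list, and it was also the member whose promoter shared most 36-base words with other promoters.

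Gene-end peaks, where present, mostly covered an annotated start. Of the gene-end peaks of genes with a known start, 18 of 21 covered that start in KO, 17 of 19 in KI and 18 of 20 in WT. Starts without a gene-end peak do not enter these counts, and Rslcan18 and Zfp640 had no start peak in any list. Among the 21 genes with the ZNF143 core word, a peak covered the start at 19 in KO, 19 in KI and 20 in WT. The exceptions were those described above, Zfp429 and Gm10037 in KO, Zfp429 and Zfp65 in KI, and Zfp58 in WT. Gene-end peaks of the cluster had a median width of 652 bp in KO, 689 bp in KI and 739 bp in WT, beside 643, 689 and 702 bp for all peaks of the 6.5 Mb stretch and 514, 477 and 590 bp over whole lists.

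**Figure D4:**
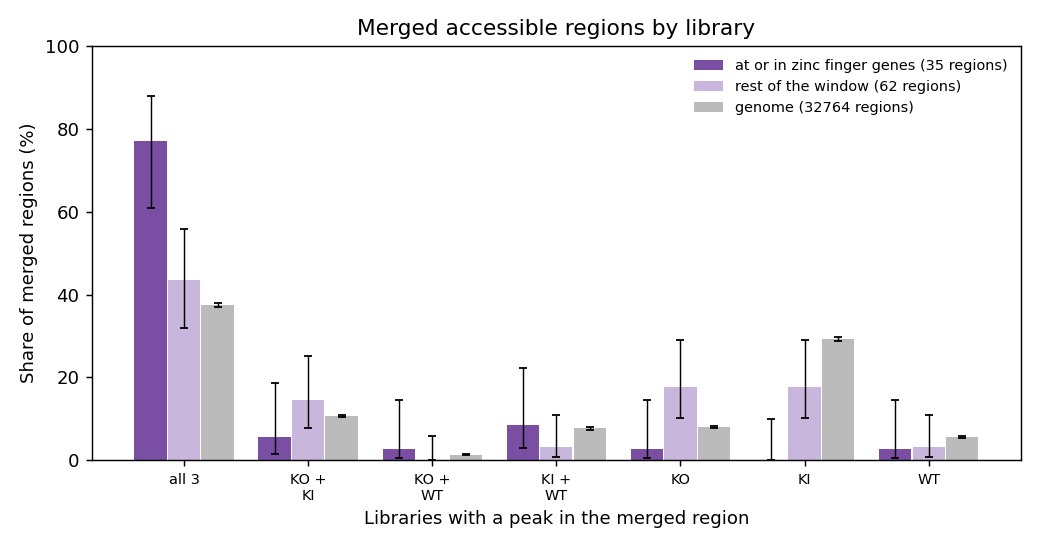
Share of merged accessible regions by the libraries with a peak in them, for the 35 regions at or in the zinc finger genes, the 62 other regions of the 6.5 Mb stretch and the 32764 regions of the genome; error bars are 95% Wilson intervals. At the zinc finger genes 77.1% of regions had a peak in all 3 libraries, against 37.5% over the genome, where regions away from genes are counted too.

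After merging overlapping peaks of the 3 lists, the 6.5 Mb stretch held 97 regions. At or within 1 kb of the zinc finger genes, 27 of 35 regions (77.1%, interval 61 to 87.9) had a peak in all 3 lists, against 27 of 62 (43.5%, 31.9 to 55.9) in the remainder of the stretch and 37.5% over the genome. At the zinc finger genes 2 regions had peaks in KO and KI without WT, those with KI and WT peaks 3, and those with KO and WT peaks 1. Single-library regions there were 1 in KO, at Zfp738 with a score of 50.67, 0 in KI and 1 in WT, at Zfp429. The WT region at Zfp429 stood at percentile 82.1, while the KO region at Zfp738 stood at percentile 1.18. Strong peaks were more often shared. Over the genome, 1% of KO peaks and 2% of KI peaks in the top 25% of their list were absent from WT. In the 6.5 Mb stretch these shares were higher, at 2.63% (1 of 38) and 4.65% (2 of 43). Of the top 25% WT peaks there, 3.03% (1 of 33) were absent from KO, beside 0.393% over the genome. The same share, 3.03%, was absent from KI, beside 0.139%. These shares of the stretch rest on 1 or 2 peaks each. The zinc finger genes had median percentiles of 79.9 in KO, 82.1 in KI and 79.6 in WT. The sets compared with them also hold regions away from genes. Gene by gene, 56.2% of the cluster had gene-end peaks in all 3 lists, beside 60.6% of Zfp genes elsewhere. With gene-body peaks counted as well, the shares were 84.4% and 70.4%. The parts of score and of place in the higher shared fraction were not tested.

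Over whole lists, 79 KO, 83 KI and 66 WT peaks fell in the stretch. Of these, 29.1% of KO peaks were absent from WT (interval 20.3 to 39.9), beside 32.4% over the genome, and 26.5% of KI peaks (18.2 to 36.9), beside 46.5%. Of the WT peaks 15.2% were absent from KO (8.44 to 25.7), beside 25.5%, and 6.06% from KI (2.38 to 14.6), beside 13.1%. Between the mutants, 20.5% of KI peaks were absent from KO (13.2 to 30.4), beside 43.2% over the genome, and 16.5% of KO peaks from KI (9.88 to 26.1), beside 16%. Peaks of the stretch scored high in their lists, with a median percentile of 71.7 in KO, 77.7 in KI and 76 in WT. The part of score in these shares was not tested.

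The accessible part of the cluster was interrupted by a long stretch, most of whose genes carry provisional Gm or LOC symbols. From 65279533 to 66904731, over 1.63 Mb, no region had a peak in all 3 lists. It held 14 protein-coding genes, of which Zfp640 was the 1 member of the cluster. KO had 6 peaks there with scores from 50.01 to 99.31, KI had 1 with a score of 65.74, and WT had 0. A run of 840 kb within it, from 65590865 to 66431347, had no peak in any list. Which genes there can be reached by uniquely placed reads was not tested.

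The nearest chromosome 13 genes outside the boundaries with a symbol beginning with Zfp were Zfp346 on one side (6.86 Mb away) and Zfp72 on the other (5.87 Mb). Zinc finger genes under other symbols were not searched for. Zfp72 had a gene-end peak in every list, at percentile 57.5 in KO, 75.7 in KI and 54.4 in WT. Zfp346 had none in KO, against percentile 32.8 in KI and 65.2 in WT.

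The partners through which KRAB proteins act were mostly accessible as well. Of 24 genes of the TRIM28 corepressor pathway, 17 had a gene-end peak in KO, 20 in KI and 16 in WT. Over all protein-coding genes the shares were 44.1% in KO, 51.4% in KI and 44.2% in WT. Trim28, the corepressor itself, stood at percentile 90.5 in KO, 97.5 in KI and 95 in WT. Setdb1, the histone methyltransferase that TRIM28 recruits, had a gene-end peak at percentile 29.3 in KO and 71.4 in KI and none in WT. Cbx1, a heterochromatin protein, showed the same pattern, at 66.6 in KO and 70.3 in KI, with none in WT. Dnmt3b, a de novo DNA methyltransferase, was lost in KO and stood at 67.9 in KI and 59.2 in WT. Chd4, a nucleosome remodelling enzyme, was gained in KI at percentile 48.8, and so was Zfp57, a KRAB protein that guards imprinted loci, at 58.9. KO thus lost 1 of 16, beside 10.5% of all genes, and gained 2 of the other 8, beside 8.21%. KI lost 0, beside 3.29%, and gained 4, beside 15.5%. These counts rest on few genes.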

How the data were processed

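ATAC-seq was performed on sorted HSC, with 50000 cells and a transposition of 30 min at 37 °C per library, per the labels' protocols. The 12 RNA-seq samples of the series were not analysed here. Each of the 3 deposited files is a list of peaks of 1 library, with chromosome, start, end, a name in the form MACS writes and a score, the authors' own value per peak. CASAVA and the build mm10 are named, per the submitters' processing notes. The aligner, MACS version, duplicate handling, transposase shift and any control are unknown here, since no source used gives them. Reads that could not be placed uniquely and a deeper library can both change which peaks are listed.

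Groups came from the sample titles. Peaks on autosomes, X and Y were kept, and file starts were changed to count from 1. Percentiles were ranks of the score within its own list. A gene-end peak overlapped the 1 kb on either side of an annotated gene end. Peaks were shared when at least 1 bp overlapped. A gene was lost when WT had a gene-end peak and the mutant had none, and gained in the opposite case. Intervals of shares are Wilson 95% intervals and hold counting error alone. There was no test, since each genotype had 1 library. Words and motifs were searched in RefSeq promoter windows of GRCm38.p6, on both strands, and promoters were aligned globally (Biopython 1.88; Python 3.11.15, pandas 2.3.3, scipy 1.17.1). The counting steps were checked on simulated data. The genes, lists and comparisons were chosen with earlier results of these data known. The genes named with values were those whose gene-end status differed between libraries, the 6 highest in WT among those with a peak in all 3 lists, those with a gene-body peak, Rsl1 and Rslcan18, and corepressor genes whose status differed. Genes named beyond these were chosen after their values were seen. Alternatives were other windows, list lengths, score limits, gene sets, overlaps and peak places, and the last was added after the data were examined.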

Additional observations from a re-analysis of the deposited data

How the results depend on the processing

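The loss of Zfp429 in KO and KI and the gain of Zfp58 in both were found under all 9 alternatives run. The cluster was chosen for the difference at these genes, so this is a description. No KO or KI peak lay closer than 21171 bp to the WT peak at Zfp429. No WT peak lay closer than 15198 bp to the KO peak at Zfp58. Alternatives in window, peak place or overlap therefore could not change these calls, nor could the gene sets, which removed neither gene. The score limit of 100 lay below the score at Zfp429 in WT (187.29) and at Zfp58 in KO (189.33) and KI (192.67). The WT list was the shortest and was not cut at equal length, and the Zfp58 peaks ranked 2591 in KO and 5815 in KI. None of the alternatives could therefore change these calls. The other calls varied. With peaks of score 100 or more, KO lost 6 members and gained 2, KI gained 4, 2 were lost in both mutants, 6 had a KI and no KO peak and 0 the opposite. With annotated starts alone, KO and KI gained 1 each, Zfp58, so that 1 was gained in both, and Zfp459 and Gm10037 replaced Zfp369 and Zfp729b among the losses in KO. Zfp369 and Zfp729b had no start among the promoter windows, so this alternative left them out and could not call them. With peaks anywhere in a gene or up to 1 kb outside it, an alternative chosen after seeing the data, KO gained 1, KI gained 1, 1 was gained in both, KI lost 1 and 0 had a KO and no KI peak. With gene ends of 500 or 2500 bp, or with calls that required no overlapping peak, 1 member had a KI and no KO peak, because Zfp369 dropped out.

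With a reciprocal overlap of 50%, 27.8% of KO peaks of the stretch were absent from KI, 31.3% of KI peaks from KO and 15.2% of WT peaks from KI. At equal list length 17.4% of KI peaks were absent from WT. With scores of 100 or more, 47 KO peaks were left in the stretch, of which 0% were absent from KI and 14.9% from WT. At or in the zinc finger genes alone, there were 32 KO, 32 KI and 33 WT peaks. There 6.25% of KO peaks were absent from KI and 9.38% from WT, and 9.38% of KI peaks were absent from KO and 6.25% from WT. Among gene-end peaks alone the median percentile was 65.5 in KO, 62.6 in KI and 67.4 in WT. All were lower than in whole lists, and KI went from highest to lowest. Fewer peaks or genes entered several of these counts by construction, and other causes were not tested. No paired analysis was possible because each genotype had 1 ATAC-seq library and no result came from a test. Read depth and read length are unknown, which limits every statement on a missing peak.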
